A study of Mus musculus with 31 samples.

Results

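The libraries described here are the 4 DN1 cultures of day 5, taken 1 day after 4-hydroxytamoxifen (4-OHT), out of 31 libraries of the series. They were chosen by their titles: DN1a and DN1b carried the floxed alleles and DN1c and DN1d were controls. Counts covered 48881 genes, of which 15172 passed a low-count filter and were tested. Of these, 14570 lie on chromosomes 1 to 19 and are the genes reported. The floxed cells came from R26-CreERT2;R26-stop-tdTomato mice that also carried E2Af/f and HEBf/f (n = 2), and the control cells from R26-CreERT2;R26-stop-tdTomato mice without those alleles (n = 2). All were C57BL/6 thymocytes per the labels, which give neither age nor sex. Both genotypes were grown on OP9-DL1 stromal cells, which present a Notch ligand, with stem cell factor and the interleukins IL-7 and IL-2, both received 4-OHT on day 4, and both were sorted on day 5 for tdTomato. The reporter marks cells in which Cre was active and does not itself show that all 4 floxed alleles were lost. The other groups used for comparison are DN1 cultures of day 4, before 4-OHT and unsorted, DN1 cultures of day 7, and DN3 cultures of day 5, each with 2 floxed and 2 control libraries. Whether the 2 replicates of a group are separate animals or cultures is not stated, and the p-values therefore rest on the spread between libraries, which may be technical.

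E proteins are basic helix-loop-helix transcription factors that bind the E-box, CANNTG, as dimers. E2A, encoded by Tcf3, and HEB, encoded by Tcf12, act together in early thymocytes, where they drive genes of the pre-T cell receptor, recombination and Notch signalling. Id proteins pair with E proteins and keep them off DNA, and cells with low E protein activity can enter innate lymphoid fates, among them group 2 innate lymphoid cells (ILC2). DN1 cells are the earliest thymocyte stage and DN3 cells are committed T cell precursors. Below, DN1 and DN3 are the names that the cultures carry in their titles, and the stage of the sequenced cells was not tested.

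Totals were 7088429 and 7057912 counts in floxed a and b, against 6743376 and 7898407 in control c and d. Levels are in CPM, counts scaled to the library total as corrected by TMM, and genes of a few CPM rest on few reads at these depths. Genotype and sex cannot be told apart: Xist was 1170 and 1430 CPM in floxed cells, against 6.91 and 15.7 in controls, which is why only chromosomes 1 to 19 are reported. Markers of the OP9 stroma summed to 193 and 215 CPM in floxed cells and to 78.0 and 97.9 in controls. None of its 13 tested markers passed, but each of the 14 found in the annotation was higher in both floxed libraries than in both controls. Cxcl12 had 60.6 and 67.0 CPM in floxed cells, against 24.4 and 27.1 in controls. The part of the stroma in the results was not tested. Myeloid markers summed to 282 CPM in floxed a and 26.0 in floxed b, against 17.7 and 34.6 in controls, with S100a8 at 123 CPM, S100a9 at 84.5, Mpo at 41.6 and Lyz2 at 18.6 in floxed a, and at 3.59, 3.01, 1.86 and 1.72 in floxed b. Ctss was the only one of 10 tested myeloid markers to pass, at 10.4 and 13.9 CPM in floxed cells, against 2.61 and 3.93 in controls (adjusted p = 0.0308 by the edgeR test described next), and it did not pass without floxed b (0.234) or control c (0.247) or d (0.127). Mast cell markers summed to 390 and 447 CPM in floxed cells and 238 and 258 in controls, led by Cpa3, which early progenitors also express. The mast cell genes Mcpt1, Mcpt2, Mcpt4, Fcer1a and Ms4a2 had no count in any of the 4 libraries. Erythroid markers summed to 176 and 50.5 CPM in floxed cells and to 277 and 387 in controls. None of the 4 tested erythroid markers passed. Markers of DN1 and DN2 thymocytes summed to 2230 and 2220 CPM in floxed cells, against 2270 and 2180 in controls, a sum in which Il2ra and Tcf7 are the largest. Of these 10 markers, 2 rose (Gata3 and Tcf7) and 4 fell (Il7r, Notch1, Lyl1 and Bcl11a), with values given below. Kit, a receptor of that stage, did not pass (log2 change -0.08 ± 0.28, adjusted p = 0.941, by the test described next). Il2ra (CD25), a receptor by which DN2 cells are told from DN1 cells, was abundant in both genotypes at 1029 and 899.7, against 1133 and 1058 CPM (-0.18 ± 0.10, adjusted p = 0.368).

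One day after 4-OHT, 730 of 14570 genes differed between floxed and control DN1 cells at an adjusted p under 0.05, by edgeR's quasi-likelihood test with Benjamini-Hochberg adjustment. That is 5.01% of the tested genes. Of them, 370 (2.54%) rose and 360 (2.47%) fell in floxed cells. In all 730 the floxed and control libraries did not overlap, but with 2 libraries a group that was also so in 49.3% of the 14570 genes, so it is no added support for a gene. Most changes were modest. Among the genes that rose, 171 changed less than 2-fold, 108 between 2-fold and 4-fold, and 91 more. Among those that fell, 205 changed less than 2-fold, 109 between 2-fold and 4-fold, and 46 more. The median size was 1.09 on the log2 scale for genes that rose and 0.84 for genes that fell. Floxed b lay farther from the controls than floxed a for 291 of the 370 genes that rose (78.6%) and 246 of the 360 that fell (68.3%). Its myeloid sum lay within the range of the controls. Leaving out 1 library gave 687 calls for floxed a, 214 for floxed b, 272 for control c and 265 for control d. In all 4 of those fits 73 of the genes that rose and 82 that fell passed. Genes named below as risen or fallen passed in all 4 unless the text names the library whose omission ended the call, with the adjusted p then reached in brackets. Before 4-OHT, 13 of 14570 genes (0.0892%) differed, 7 of them among the genes that rose on day 5 and 5 among those that fell. Beyond pseudogenes, predicted genes and an antisense transcript these were Gdpd3, Skap1 and Tenm4, higher in floxed cells on both days, Rpl29, lower on both and with close pseudogenes that can share its reads, and Acss1, higher on day 4 alone. The change of the floxed to control difference from day 4 to day 5 passed for 95 genes (0.652%), 50 upward and 45 downward. It also moves with the tdTomato sort, since day 4 cells were not sorted. Xist in floxed cells was 648 and 582 CPM on day 4, against 1170 and 1430 on day 5. Y-linked genes in controls summed to 76.5 and 90.5 CPM on day 4, against 157 and 165 on day 5. Whether a different cell mixture lowered the number of day 4 calls was not tested.

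Of the targeted genes, Tcf12 passed and Tcf3 did not, and no test compared them. Tcf12, which encodes HEB, had 94.8 and 123 CPM in floxed cells, against 221 and 209.9 in controls. It fell in both floxed libraries (log2 change -0.98 ± 0.10, adjusted p = 8.87e-06). Tcf3, which encodes E2A, had 63.8 and 36 CPM in floxed cells, against 83.5 and 91.6 in controls. The difference did not pass (-0.81 ± 0.35, adjusted p = 0.233). Reads of exons that are not deleted still count toward each gene. Within 5 Mb of Tcf12, 5 of 67 tested genes passed (7.46%), and within 5 Mb of Tcf3, 15 of 198 (7.58%), against 5.01% of all tested genes. On day 4 none of these passed. Chromosome 9, which holds Rora, Cd3g and Cx3cr1 described below, had the highest share of the chromosomes, 6.93%. The part of DNA linked to the floxed alleles in these values was not tested. The third E protein gene, Tcf4, was at 113 and 115, against 129 and 127 and did not pass (-0.17 ± 0.09, adjusted p = 0.368). Of the inhibitors, Id2 was near equal at 56.9 and 79.8, against 66.8 and 66.8 CPM, while Id3 rose (1.11 ± 0.17, adjusted p = 0.000536). Id3 had 160.1 and 134 CPM in floxed cells, against 67.9 and 68.9 in controls. Lyl1, a bHLH factor of early progenitors that pairs with E proteins, fell to 49.2 and 19.8 CPM in floxed cells, against 117 and 114 in controls (-1.74 ± 0.28, adjusted p = 0.000824).

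The 4 marker genes moved in opposite pairs. Cd3g, a chain of the CD3 signalling complex, had 3.13 and 9.32 CPM in floxed cells, against 38.4 and 38.8 in controls (log2 change -2.63 ± 0.27, adjusted p = 6.85e-06). Notch1, the receptor for the ligand on the stroma, had 61 and 68.2 CPM in floxed cells, against 194 and 176 in controls (-1.52 ± 0.19, adjusted p = 5.87e-05). Both were lower in each floxed library than in each control. Rora, a nuclear receptor needed for ILC2 development, had 80 and 226 CPM in floxed cells, against 7.06 and 9.69 in controls (4.18 ± 0.42, adjusted p = 6.59e-06). Zbtb16 (PLZF), a factor of innate-like lymphocyte precursors, had 42 and 48.1 CPM in floxed cells, against 8.45 and 4.84 in controls (2.77 ± 0.40, adjusted p = 0.000294). Rora was higher in floxed b than in floxed a, and both lay above the controls.

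Windows of 300 bases around the annotated starts of Cd3g, Notch1 and Rora, and of the chemokine receptor gene Cx3cr1 described below, are shown to set the E-box letters beside genes that fell and rose. They run from 250 bases before the start to 50 after it, 5′ to 3′ on the gene's strand, from RefSeq on GRCm38.p6. Capitals mark each CANNTG, a motif that reads the same on both strands. Cd3g is at chr9:44980382-44980681 (minus strand), Notch1 at chr2:26503773-26504072 (minus), Rora at chr9:68653536-68653835 (plus) and Cx3cr1 at chr9:120068247-120068546 (minus).
Cd3g: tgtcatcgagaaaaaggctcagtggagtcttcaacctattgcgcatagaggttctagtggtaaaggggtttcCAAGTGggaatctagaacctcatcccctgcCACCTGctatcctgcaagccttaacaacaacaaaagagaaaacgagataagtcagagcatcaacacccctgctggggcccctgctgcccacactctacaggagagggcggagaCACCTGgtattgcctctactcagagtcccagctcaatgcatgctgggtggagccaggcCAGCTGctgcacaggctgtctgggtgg
Cx3cr1: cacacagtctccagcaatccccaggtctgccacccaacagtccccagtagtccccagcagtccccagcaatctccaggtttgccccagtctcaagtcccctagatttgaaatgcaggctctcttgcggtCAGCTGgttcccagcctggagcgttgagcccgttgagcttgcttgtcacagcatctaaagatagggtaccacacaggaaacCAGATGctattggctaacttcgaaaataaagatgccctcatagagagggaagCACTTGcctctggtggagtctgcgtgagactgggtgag
Notch1: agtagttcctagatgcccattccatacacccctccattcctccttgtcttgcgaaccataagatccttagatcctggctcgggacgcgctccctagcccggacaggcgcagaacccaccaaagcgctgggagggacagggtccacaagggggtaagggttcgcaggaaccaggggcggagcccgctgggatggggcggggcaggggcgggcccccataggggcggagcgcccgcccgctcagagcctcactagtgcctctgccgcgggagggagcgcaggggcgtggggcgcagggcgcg
Rora: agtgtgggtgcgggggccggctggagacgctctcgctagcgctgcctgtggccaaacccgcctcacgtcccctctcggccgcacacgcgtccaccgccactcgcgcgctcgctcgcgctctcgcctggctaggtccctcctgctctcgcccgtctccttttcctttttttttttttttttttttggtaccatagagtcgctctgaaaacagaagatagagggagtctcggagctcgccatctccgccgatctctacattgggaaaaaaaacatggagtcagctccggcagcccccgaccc
The Cd3g window holds 4 matches, CAAGTG at position -178, CACCTG at -148 and -35 and CAGCTG at 23, counted from the start. Cx3cr1 holds 3, CAGCTG at -121, CAGATG at -40 and CACTTG at 12. These letters do not occur in the Notch1 and Rora windows. Whether these cells begin transcription at the annotated starts shown was not tested. The motif is short and common: it was found in 70.4% of 368 windows of genes that rose, 68.5% of 330 windows of genes that fell, 63.4% of 11777 windows of genes that did not pass, and 72.2% of all 31396 windows on chromosomes 1 to 19. The form CAGCTG was in 22.3% of windows of genes that rose, 15.8% of genes that fell, 15.1% of genes that did not pass and 16.3% of all. The form CAGGTG, or CACCTG on the other strand, was in 17.4%, 17.9%, 17.7% and 20.5%. Windows were found for 268 of the genes that rose and 271 of those that fell, and some genes have several. A match is a run of letters, not a bound site.

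Some components of T cell receptor assembly fell. The share that fell was 37.5% of CD3 and pre-TCR genes, 40% of recombination genes and 5% of proximal signalling genes. Over all tested genes it was 2.47%. Of 8 tested genes for CD3 chains and the pre-T cell receptor, 3 fell and none rose (1 to 3 fell when 1 library was left out), with a median log2 change of -1.24 against 0.002 over all tested genes. Beside Cd3g these were Cd3d (14.8 and 28.3, against 46.5 and 47.6 CPM, -1.13 ± 0.29, adjusted p = 0.0271) and Ptcra, the pre-TCR alpha chain, which was low in all libraries (3.13 and 3.16, against 11.2 and 8.12 CPM, -1.61 ± 0.38, adjusted p = 0.0156). Cd3d did not pass without floxed a (0.234) or control c (0.116) or d (0.143), and Ptcra not without floxed a (0.0754) or b (0.134) or control c (0.157). Cd247, the CD3 zeta chain, overlapped between the groups at 17.2 and 33.7, against 32.6 and 32.6 CPM and did not pass (-0.36 ± 0.22, adjusted p = 0.453). Of 10 recombination genes, 4 fell (1 to 3 with 1 library left out; median -0.39). Rag1, a subunit of the recombinase, had 6.4 and 7.89 CPM in floxed cells, against 41.2 and 33.2 in controls (-2.38 ± 0.46, adjusted p = 0.0038), and it missed the threshold only without floxed b (0.0507). Dntt, the polymerase that adds bases at junctions, had 28.8 and 31.6 CPM in floxed cells, against 90.3 and 77.2 in controls (-1.47 ± 0.39, adjusted p = 0.0332) and did not pass without floxed a or b or control c or d (0.107 to 0.195). The end-joining genes Lig4 (13.5 and 18.8, against 40.7 and 31.9 CPM, -1.17 ± 0.25, adjusted p = 0.00911) and Xrcc6 (27.5 and 21.2, against 39 and 36.5 CPM, -0.63 ± 0.18, adjusted p = 0.0462) completed the set. Lig4 did not pass without floxed a (0.0957) or control c (0.119), and Xrcc6 not without floxed b (0.414) or control c (0.238) or d (0.156). Of 20 genes of proximal receptor signalling, the adaptor gene Sh2d2a alone passed (31 and 40.3, against 55.4 and 51.5 CPM, -0.58 ± 0.14, adjusted p = 0.0218), and not without floxed a (0.2) or control c (0.165) or d (0.0804). The kinase gene Lck was at 235 and 235, against 279.6 and 279.9 CPM (-0.25 ± 0.15, adjusted p = 0.416).

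In the Notch lists, 2 receptor genes fell, and of the targets 2 rose and 1 fell. That is 10% of the receptor and machinery list that fell, and 20% of the targets that rose and 10% that fell. Of all tested genes 2.54% rose and 2.47% fell. Of 20 genes for Notch receptors and their processing machinery, 2 fell and none rose, Notch1 and the low Notch3 (5.69 and 6.03, against 13.8 and 16.2 CPM, -1.36 ± 0.37, adjusted p = 0.0386), which did not pass without floxed a or b or control c or d (0.112 to 0.232). Aph1a, a subunit of gamma-secretase, was at 113 and 115, against 140.2 and 143 CPM and did not pass (-0.31 ± 0.11, adjusted p = 0.121). Among 10 Notch targets, Nrarp, a target that also limits the pathway, had 45 and 31.6 CPM in floxed cells, against 69.9 and 69 in controls (-0.86 ± 0.19, adjusted p = 0.00998) and did not pass without floxed b (0.208) or control c (0.0782) or d (0.0701). Tcf7 (TCF1) rose, with 688 and 699.7 CPM in floxed cells, against 428 and 444 in controls (0.67 ± 0.15, adjusted p = 0.0112), but not without floxed b (0.0915) or control c (0.113) or d (0.0818). Gata3 also rose, with 221 and 376 CPM in floxed cells, against 161 and 149.8 in controls (0.94 ± 0.20, adjusted p = 0.00679), but not without floxed b (0.246) or control c (0.0579) or d (0.0947).

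**Figure D1:**
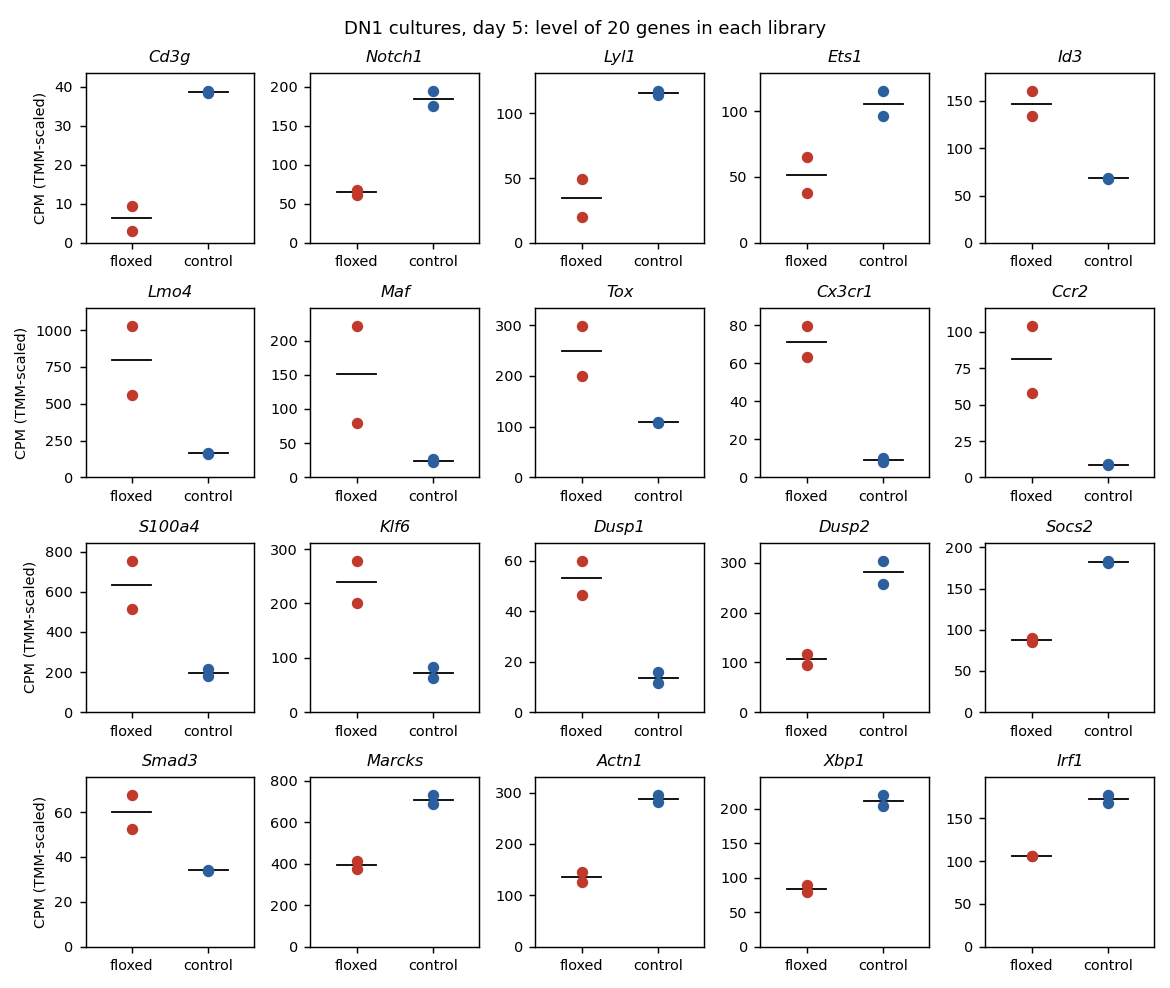
Level of 20 genes in TMM-scaled CPM (vertical axes, each from 0), in the 2 floxed (red, left) and 2 control (blue, right) DN1 libraries of day 5, with the mean of each group as a black line. All 20 genes passed the test, and floxed a and b spread widely for Lmo4 (561 and 1027 CPM) and Maf (79.8 and 221).

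Of 18 tested transcription factors of innate lymphoid cells, 8 rose and 3 fell (5 to 8 and 2 to 3 with 1 library left out), with a median log2 change of 0.91. That is 44.4% and 16.7%, against 2.54% and 2.47% of all tested genes. The lists share members. Those that rose include the marker genes Rora and Zbtb16, and Gata3 and Tcf7, counted above among the Notch targets. Gata3, Tcf7, Tox and Ets1 are counted again among the T-lineage factors below. None of the 18 passed on day 4, before 4-OHT (median 0.22). In the change from day 4 to day 5, 3 of them passed upward and 1 downward (median 0.40). Lmo4, a LIM-only adaptor of transcription complexes, had 561 and 1027 CPM in floxed cells, against 169 and 162 in controls (2.26 ± 0.23, adjusted p = 7.65e-06). Maf had 79.8 and 221 CPM in floxed cells, against 22.7 and 26.7 in controls (2.602 ± 0.34, adjusted p = 8.58e-05), with floxed b above floxed a. Tox, needed for innate lymphoid and CD4 lineages, had 200.1 and 298 CPM in floxed cells, against 109 and 108 in controls (1.2 ± 0.14, adjusted p = 2.75e-05). Ahr, a ligand-activated factor of innate cells, had 34.3 and 30.9 CPM in floxed cells, against 14.9 and 14.8 in controls (1.13 ± 0.30, adjusted p = 0.0309) and did not pass without floxed a or b or control c or d (0.115 to 0.195). Of those that fell, Bhlhe40 had 15.8 and 20.8 CPM in floxed cells, against 33.6 and 35 in controls (-0.91 ± 0.16, adjusted p = 0.00177), Ets1 had 38 and 65 CPM in floxed cells, against 115 and 96.2 in controls (-1.03 ± 0.18, adjusted p = 0.00155), and Gfi1 had 34.2 and 27.6 CPM in floxed cells, against 55 and 57.2 in controls (-0.86 ± 0.17, adjusted p = 0.00548). Gfi1 did not pass without floxed b (0.122) or control d (0.0595).

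Of 19 T-lineage factors, 6 rose and 2 fell (3 to 6 and 1 with 1 library left out). That is 31.6% and 10.5%, against 2.54% and 2.47% of all tested genes. The median was 0.15 on day 5 and 0.36 on day 4, before 4-OHT, when none passed. In the change from day 4 to day 5 none passed upward and 1 passed downward (median -0.08). Ikzf2 (Helios) had 165 and 268 CPM in floxed cells, against 106 and 99.4 in controls (1.08 ± 0.17, adjusted p = 0.000817), and Tox2 had 143 and 252 CPM in floxed cells, against 34.1 and 30.6 in controls (2.61 ± 0.41, adjusted p = 0.000545). Tox2 was already higher on day 4 in size, at 2.21 ± 0.44, adjusted p = 0.0582, which did not pass. Ikzf1 (Ikaros) rose slightly (284 and 329.7, against 234 and 258 CPM, 0.32 ± 0.09, adjusted p = 0.0485) and Myb fell slightly (615 and 597, against 850.5 and 805 CPM, -0.45 ± 0.12, adjusted p = 0.0299). Ikzf1 did not pass without floxed b (0.467) or control c (0.369) or d (0.102), and Myb not without floxed a or b or control c or d (0.0862 to 0.216). Bcl11b, the T cell commitment factor, overlapped between the groups at 446 and 561, against 532 and 477 CPM (0.00 ± 0.12, adjusted p = 1.0). Among 14 early progenitor factors, 2 fell and none rose, with a median of -0.83: Lyl1 and Bcl11a (28.6 and 14.9, against 42.5 and 51.8 CPM, -1.12 ± 0.29, adjusted p = 0.029), which did not pass without floxed b (0.374) or control c (0.0917) or d (0.24). Hhex was at 23.2 and 12.1, against 34.1 and 31.6 CPM and did not pass (-0.90 ± 0.39, adjusted p = 0.23). The median of the early progenitor list was already -0.45 on day 4, before 4-OHT, when none of its genes passed. None passed in the change from day 4 to day 5 either (median -0.30).

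Receptors that guide lymphocytes out of the thymus and into tissues had the highest median of the 45 lists, 1.24. Of the 16 tested genes, 6 rose (37.5%, against 2.54% of all tested genes) and none fell. Leaving out 1 library left 6 of them risen for floxed a, 3 for floxed b, 4 for control c and 2 for control d. On day 4, before 4-OHT, none of the 16 passed, but the median of the list was already 0.52. In the change from day 4 to day 5, 1 passed upward and none downward, with a median of -0.02. In DN3 cells of day 5, 6 of the 16 passed upward and none downward. The DN1 minus DN3 difference passed for none of them. Cx3cr1, the fractalkine receptor, had 63 and 79.5 CPM in floxed cells, against 10.1 and 7.86 in controls (2.99 ± 0.28, adjusted p = 2.05e-06). Ccr2, a receptor for monocyte chemoattractant proteins, had 58.1 and 104 CPM in floxed cells, against 8.45 and 9.03 in controls (3.21 ± 0.34, adjusted p = 1.01e-05). Both floxed libraries were above both controls for each gene. These receptors are also expressed by monocytes. Of the myeloid markers, Csf1r was at 0.142 and 0.144 CPM in floxed cells, against 0.307 and 0.393 in controls, while Ctss rose and the sum was high in floxed a, as given above, and the part of myeloid cells in these values was not tested. Klf2, a factor that drives exit genes, had 15.8 and 34.9 CPM in floxed cells, against 5.99 and 4.19 in controls (2.32 ± 0.41, adjusted p = 0.00185), and its target S1pr1, the exit receptor, had 3.84 and 12.2 CPM in floxed cells, against 0.461 and 2.36 in controls (2.43 ± 0.64, adjusted p = 0.0309). Klf2 did not pass without floxed b (0.0713) or control d (0.0553), and S1pr1 not without floxed b (0.516) or control c (0.28) or d (0.053). Cxcr4, which holds thymocytes near stroma, went the other way in size at 122 and 126, against 186 and 206 CPM, a difference that did not pass (-0.66 ± 0.24, adjusted p = 0.126).

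Adhesion genes moved both ways. Of the integrin list 22.7% rose and 9.09% fell, and of the costimulatory list 20% rose. Over all tested genes 2.54% rose and 2.47% fell. Of 22 integrins and partners, 5 rose and 2 fell (1 to 6 and 1 to 3 with 1 library left out; median 0.40). Cd81, a tetraspanin that associates with integrins, had 52.7 and 48.6 CPM in floxed cells, against 26.6 and 28.4 in controls (0.88 ± 0.12, adjusted p = 0.000165). Both chains of the gut-homing integrin alpha4 beta7 rose: Itga4 had 340.0 and 405 CPM in floxed cells, against 247 and 251 in controls (0.58 ± 0.13, adjusted p = 0.00979), and Itgb7 had 131 and 167 CPM in floxed cells, against 68.5 and 76.1 in controls (1.04 ± 0.26, adjusted p = 0.0203). Itga4 did not pass without floxed b (0.185) or control c (0.101) or d (0.0829), and Itgb7 not without floxed b (0.222) or control c (0.178) or d (0.112). Itgb2, the leukocyte beta2 chain, had 29.5 and 42.5 CPM in floxed cells, against 20.9 and 16.8 in controls (0.94 ± 0.21, adjusted p = 0.0107) and did not pass without floxed b (0.232) or control d (0.171). The laminin receptor chain Itga6 fell to 90.9 and 91.1 CPM in floxed cells, against 149 and 138 in controls (-0.66 ± 0.13, adjusted p = 0.00492), though not without floxed b (0.0618) or control c (0.0714). Tspan2, another tetraspanin, had 20.2 and 15.5 CPM in floxed cells, against 102 and 108 in controls (-2.56 ± 0.30, adjusted p = 2.87e-05). Itgae, the remaining gene that rose, was low (1.42 and 4.88, against 0.154 and 0.393 CPM, 3.405 ± 0.80, adjusted p = 0.0157) and did not pass without floxed b (0.343) or control c (0.149) or d (0.1). Of 15 costimulatory receptors 3 rose: Icos (13.9 and 44.3, against 3.84 and 5.5 CPM, 2.62 ± 0.51, adjusted p = 0.00405), Cd28 (18.2 and 31, against 4.3 and 6.81 CPM, 2.13 ± 0.38, adjusted p = 0.00196) and Pdcd1, which encodes PD-1 (20.2 and 32.1, against 6.91 and 8.51 CPM, 1.75 ± 0.32, adjusted p = 0.00255). Icos did not pass without floxed b (0.177) or control c (0.0775), Cd28 not without floxed b (0.0598) or control c (0.0534), and Pdcd1 not without floxed b (0.071) or control c (0.0564). Cd27 was at 78.1 and 85.1, against 66.7 and 82.9 CPM and did not pass (0.12 ± 0.17, adjusted p = 0.791).

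Immediate early genes and the phosphatases that restrain MAP kinases did not move as a block. The shares that rose and fell were 15.4% and 11.5% of early response genes and 20% and 6.67% of AP-1 genes. Over all tested genes they were 2.54% and 2.47%. Of 26 early response and MAPK feedback genes, 4 rose and 3 fell (2 to 4 and 1 to 3 with 1 library left out; median 0.21). Dusp1 had 46.5 and 60.1 CPM in floxed cells, against 16 and 11.4 in controls (1.97 ± 0.24, adjusted p = 4.94e-05), while Dusp2, a relative that acts on the same kinase class, had 117 and 95.5 CPM in floxed cells, against 258 and 304 in controls (-1.404 ± 0.17, adjusted p = 2.89e-05). The fitted level in floxed cells was 3.91 times that of controls for Dusp1 and 0.378 times for Dusp2. Dusp5 (60.8 and 45.8, against 86.3 and 77.1 CPM, -0.62 ± 0.17, adjusted p = 0.0356) fell with Dusp2, but not without floxed b (0.404) or control c (0.249) or d (0.101). Klf6, a zinc finger early response factor, had 201 and 278 CPM in floxed cells, against 82.2 and 62.7 in controls (1.73 ± 0.20, adjusted p = 2.6e-05). Egr1 had 16.8 and 30.1 CPM in floxed cells, against 7.68 and 8.12 in controls (1.57 ± 0.41, adjusted p = 0.03) and did not pass without floxed b (0.385) or control c (0.181) or d (0.178). Of 15 AP-1 genes, Fos (33.3 and 67.1, against 7.06 and 3.67 CPM, 3.25 ± 0.62, adjusted p = 0.00346), Fosb (33.9 and 58.2, against 9.37 and 2.49 CPM, 2.996 ± 0.61, adjusted p = 0.00562) and Jun (25.1 and 22.8, against 13.1 and 8.25 CPM, 1.18 ± 0.25, adjusted p = 0.00792) rose. Bach2, a repressor that competes at AP-1 sites, fell to 8.11 and 8.03 CPM in floxed cells, against 22.6 and 21.5 in controls (-1.45 ± 0.28, adjusted p = 0.00438). Fos did not pass without floxed b (0.0686) or control d (0.0884), Fosb not without floxed b (0.0808) or control d (0.13), Jun not without control d (0.172), and Bach2 not without floxed b (0.0646). Genes of these lists also respond to cell handling, and its part in these values was not tested.

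Some feedback genes of cytokine signalling fell. The share that fell was 25% of the STAT5 list, against 2.47% of all tested genes. Of the common gamma chain and JAK-STAT list 13.3% rose and 6.67% fell, where 2.54% of all tested genes rose. Of 12 STAT5 targets and cytokine feedback genes, 3 fell and none rose (1 fell with 1 library left out), 11 had a log2 change below 0, and the median was -0.42. Socs2, an inhibitor of JAK-STAT signalling that STAT5 induces, had 85.1 and 90.5 CPM in floxed cells, against 181 and 184 in controls (-1.06 ± 0.18, adjusted p = 0.00117). Cish, a second such inhibitor, had 41 and 40 CPM in floxed cells, against 78.2 and 84.8 in controls (-1.01 ± 0.23, adjusted p = 0.0138), and the kinase gene Pim1 had 361 and 324 CPM in floxed cells, against 583 and 553 in controls (-0.73 ± 0.21, adjusted p = 0.0494). Cish did not pass without floxed a or b or control c or d (0.0618 to 0.13), nor Pim1 without floxed a or b or control c or d (0.101 to 0.329). Bcl2, the survival gene, was at 234 and 256, against 279.8 and 264 CPM and did not pass (-0.15 ± 0.10, adjusted p = 0.502). Among 15 genes of common gamma chain receptors and JAK-STAT signalling, Il7r fell to 14.8 and 11.8 CPM in floxed cells, against 36.5 and 31.7 in controls (-1.36 ± 0.24, adjusted p = 0.00206), a call lost only without floxed b (0.0618). Il2rb (22.2 and 34.7, against 10.8 and 8.9 CPM, 1.54 ± 0.43, adjusted p = 0.0427) and Il9r (12.9 and 22.9, against 3.84 and 8.12 CPM, 1.56 ± 0.30, adjusted p = 0.00333) rose. Il2rb did not pass without floxed b (0.37) or control c (0.17) or d (0.277), and Il9r not without floxed b (0.112) or control c (0.0839). Il17rb, a receptor for the alarmin IL-25, had 61.5 and 65.3 CPM in floxed cells, against 43.9 and 40.8 in controls (0.58 ± 0.12, adjusted p = 0.00763) and did not pass without floxed b (0.0931) or control d (0.11). Il1rl1, the receptor for IL-33, had 0 and 0.144 CPM in floxed cells, against 0.154 and 0.262 in controls, and did not pass.

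**Figure D2:**
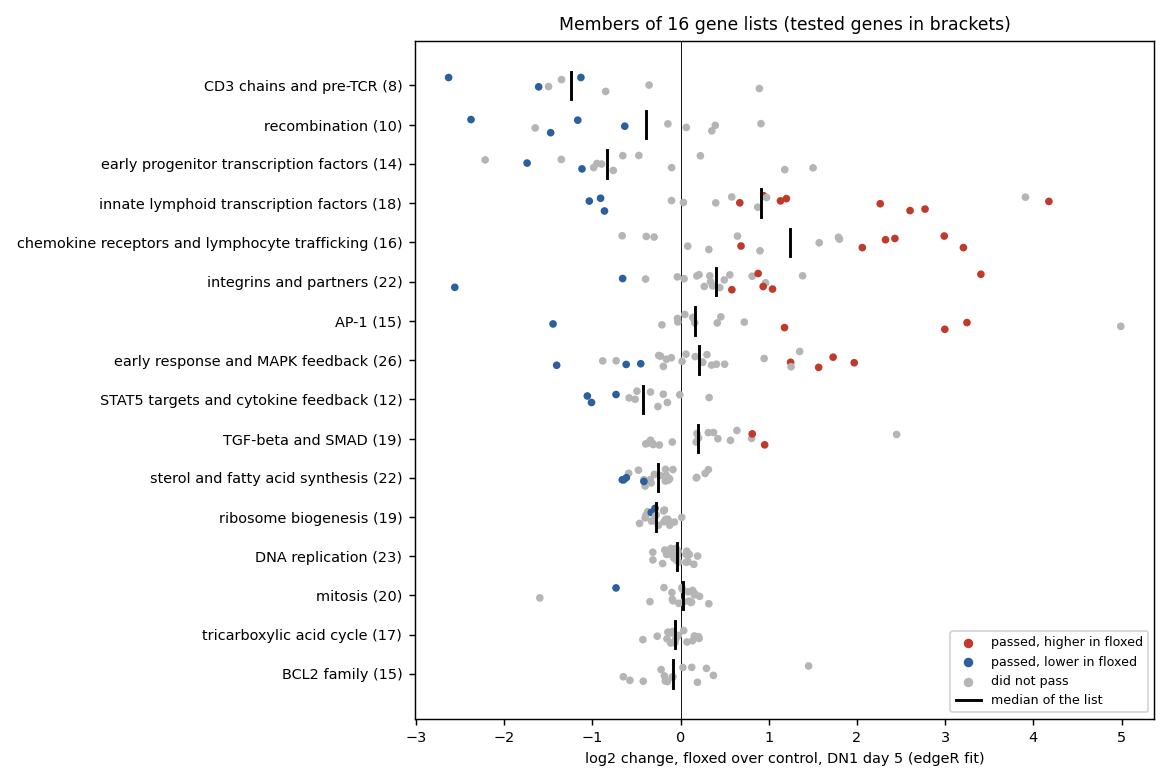
Log2 change of each tested member (points; red passed and higher in floxed, blue passed and lower, grey did not pass) and the median (black line) of 16 gene lists, floxed over control, DN1 day 5. Trafficking genes have the highest median (1.24) and CD3 and pre-TCR genes the lowest (-1.24), while DNA replication genes lie close to 0 (median -0.04).

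In the next lists few genes passed. Of TGF-beta and SMAD genes 10.5% rose, of interferon genes 10.5% fell, and of NF-kappaB genes 5.88% moved each way. Of WNT genes 11.8% rose and 5.88% fell, and of lipid mediator and purine receptors 15.4% and 7.69%. Over all tested genes 2.54% rose and 2.47% fell. Of 19 TGF-beta and SMAD genes, 2 rose and none fell (median 0.20). Smad3, the signal transducer, had 52.2 and 67.4 CPM in floxed cells, against 33.8 and 34.3 in controls (0.81 ± 0.14, adjusted p = 0.00121). Ski, which represses SMAD complexes, had 36 and 34.1 CPM in floxed cells, against 20.9 and 15.4 in controls (0.95 ± 0.15, adjusted p = 0.000558). In the interferon list 2 of 19 genes fell and none rose (median -0.23). Irf1, a factor induced by interferon and other cytokines, had 106 and 106 CPM in floxed cells, against 168 and 177 in controls (-0.70 ± 0.12, adjusted p = 0.0018). Ifitm3 had 182 and 128 CPM in floxed cells, against 262 and 264 in controls (-0.77 ± 0.16, adjusted p = 0.00587) and did not pass without floxed b (0.16) or control d (0.0536). The NF-kappaB list held 1 gene in each direction among 17: the inhibitor gene Nfkbie had 4.55 and 2.44 CPM in floxed cells, against 11.8 and 11.4 in controls (-1.73 ± 0.26, adjusted p = 0.000491), and the kinase gene Ikbke had 13.7 and 14.9 CPM in floxed cells, against 4.45 and 6.94 in controls (1.31 ± 0.29, adjusted p = 0.0114), not passing without floxed b (0.101) or control c (0.169). Of 17 WNT genes, Rnf43, which removes WNT receptors, had 5.83 and 7.6 CPM in floxed cells, against 0.461 and 1.31 in controls (2.87 ± 0.50, adjusted p = 0.00169), and Ctnnb1 (beta-catenin) did not pass at 400.2 and 343, against 454 and 490.0 CPM (-0.34 ± 0.10, adjusted p = 0.0511). The receptor gene Fzd7 fell at low levels (0.569 and 0.43, against 2 and 2.23 CPM, -2.05 ± 0.54, adjusted p = 0.0309), and not without floxed a or b or control c or d (0.0893 to 0.25). Among lipid mediator and purine receptors Nt5e (CD73), an enzyme that makes adenosine, had 7.4 and 12.2 CPM in floxed cells, against 2 and 1.83 in controls (2.35 ± 0.41, adjusted p = 0.00159), P2rx7, an ATP-gated channel, had 46.8 and 56.7 CPM in floxed cells, against 25.3 and 20.4 in controls (1.18 ± 0.31, adjusted p = 0.0317), and Adora2a, an adenosine receptor, had 5.27 and 3.59 CPM in floxed cells, against 11.5 and 15.3 in controls (-1.601 ± 0.34, adjusted p = 0.00694). P2rx7 did not pass without floxed a or b or control c or d (0.0503 to 0.263), and Adora2a not without floxed b (0.136) or control d (0.103).

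Metabolic and stress lists differed in their share of calls. The share that fell was 5% for glycolysis, 10% for hypoxia, 26.7% for metallothioneins and zinc transporters and 22.2% for gluconeogenesis and pentose phosphate. Over all tested genes it was 2.47%, and these lists are short. In the glycolysis list 1 of 20 genes rose and 1 fell (median -0.04). Hk1, the first enzyme of the pathway, had 103 and 113 CPM in floxed cells, against 69.1 and 74.4 in controls (0.59 ± 0.12, adjusted p = 0.00717), and Pkm, the last, had 164 and 153 CPM in floxed cells, against 216 and 229.7 in controls (-0.49 ± 0.12, adjusted p = 0.0247). Hk1 did not pass without floxed b (0.105) or control c (0.103), and Pkm not without floxed a or b or control c or d (0.056 to 0.229). On day 7, 13 of the same 20 passed upward in floxed cells, and Pkm was among those higher (0.39 ± 0.12, adjusted p = 0.0269). Of 20 hypoxia genes, Ndrg1 (6.12 and 3.73, against 54.5 and 50.8 CPM, -3.41 ± 0.32, adjusted p = 2.73e-06) and Vegfa (6.4 and 5.02, against 14.3 and 18.1 CPM, -1.503 ± 0.25, adjusted p = 0.00127) fell. Rora, which that list also holds, was the one that rose. Among 15 metallothionein and zinc transporter genes 4 fell and none rose (1 to 4 with 1 library left out). Mt2 had 5.27 and 3.01 CPM in floxed cells, against 24.7 and 26.1 in controls (-2.61 ± 0.34, adjusted p = 8.58e-05) and Mt1 had 45.3 and 19.7 CPM in floxed cells, against 74.9 and 89.8 in controls (-1.34 ± 0.35, adjusted p = 0.0308), though their reads may be shared between near copies. The zinc transporters Slc39a6 (50.7 and 40.9, against 65 and 61 CPM, -0.46 ± 0.11, adjusted p = 0.0219) and Slc30a4 (8.68 and 5.17, against 16.6 and 12.7 CPM, -1.07 ± 0.29, adjusted p = 0.0332) were the others. Mt1 did not pass without floxed b (0.38) or control c (0.0997) or d (0.211), Slc39a6 not without floxed b (0.329) or control c (0.173) or d (0.081), and Slc30a4 not without floxed b (0.385) or control c (0.268) or d (0.0674). Of 9 gluconeogenesis and pentose phosphate genes, 2 fell. Fbp1, a gluconeogenesis enzyme, had 1.99 and 1.58 CPM in floxed cells, against 20.6 and 26.8 in controls (-3.72 ± 0.43, adjusted p = 3.18e-05), and Pgls, of the pentose phosphate pathway, had 194 and 194 CPM in floxed cells, against 252 and 260.3 in controls (-0.40 ± 0.10, adjusted p = 0.0282) and did not pass without floxed a or b or control c or d (0.0933 to 0.185).

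In sterol and fatty acid synthesis 4 of 22 genes fell and none rose, 18 had a log2 change below 0, and the median was -0.26. The share that fell was 18.2%, against 2.47% of all tested genes. When 1 library was left out, 0 to 2 fell. The cholesterol synthesis enzymes were Msmo1 (97.2 and 107, against 164 and 155 CPM, -0.64 ± 0.13, adjusted p = 0.00681), Mvd (33.7 and 38.2, against 54.7 and 55.4 CPM, -0.61 ± 0.15, adjusted p = 0.0203), Sqle (68.9 and 65.4, against 87.4 and 91.6 CPM, -0.41 ± 0.11, adjusted p = 0.0299) and Lss (12.7 and 19.2, against 24.6 and 25.8 CPM, -0.66 ± 0.19, adjusted p = 0.046). None of these passed in every leave-one-out fit. Msmo1 did not pass without floxed a (0.061) or control c (0.0787), Mvd not without floxed a or b or control c or d (0.0763 to 0.129), Sqle not without floxed a or b or control c or d (0.0698 to 0.237), and Lss not without floxed a (0.342) or control c (0.157) or d (0.233). Scd2, a desaturase and the most abundant member that did not pass, was higher in size at 987 and 1103, against 822 and 858 CPM (0.32 ± 0.10, adjusted p = 0.0852). Of 17 genes of the unfolded protein response, 2 fell (11.8%). Xbp1, its central transcription factor, had 89.8 and 79.3 CPM in floxed cells, against 204 and 219.8 in controls (-1.33 ± 0.20, adjusted p = 0.00039), and the chaperone gene Dnajc3 had 68.9 and 76.3 CPM in floxed cells, against 103 and 113 in controls (-0.57 ± 0.10, adjusted p = 0.00204). The main chaperone of the endoplasmic reticulum, Hspa5, was at 894 and 844, against 959.5 and 952 CPM and did not pass (-0.14 ± 0.10, adjusted p = 0.511). Of the amino acid and integrated stress response genes 5.26% rose and 5.26% fell, against 2.54% and 2.47% of all tested genes. In the amino acid and integrated stress response list Atf4 fell (325 and 271, against 385 and 388 CPM, -0.38 ± 0.10, adjusted p = 0.0304) and Ddit3, which it can induce, rose (16.5 and 19.4, against 6.76 and 10.1 CPM, 1.08 ± 0.21, adjusted p = 0.0038). Atf4 did not pass without floxed b (0.398) or control c (0.145) or d (0.171), and Ddit3 not without floxed b (0.0682) or control c (0.0962).

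None of 23 DNA replication genes passed in DN1 cells by the edgeR test (median -0.04), where 5.01% of all tested genes did, and 1 of 20 mitosis genes did: Kif23, a motor of cytokinesis, with 71.4 and 71.2 CPM in floxed cells, against 114 and 123 in controls (-0.73 ± 0.11, adjusted p = 0.000294). Lig1 was at 826 and 833, against 879.8 and 811 CPM and Top2a at 1181 and 1234, against 1136 and 1094 CPM, neither of them passing. Of 20 G1 regulators, 1 rose and 3 fell (0 to 2 and 1 to 3 with 1 library left out). Ccnd3 (cyclin D3) had 418 and 368 CPM in floxed cells, against 636 and 668 in controls (-0.73 ± 0.13, adjusted p = 0.00159), and Ccnd2 (cyclin D2) had 730.2 and 499 CPM in floxed cells, against 974 and 939 in controls (-0.64 ± 0.15, adjusted p = 0.0147). Cdkn1a, the p21 inhibitor, had 75.3 and 71.3 CPM in floxed cells, against 129.5 and 128 in controls (-0.81 ± 0.14, adjusted p = 0.00177), and Rb1, the retinoblastoma gene, rose to 40.6 and 46.9 CPM in floxed cells, against 26.6 and 32.6 in controls (0.56 ± 0.13, adjusted p = 0.0117). Ccnd3 missed the threshold only without floxed b (0.0507), Ccnd2 did not pass without floxed b (0.286) or control c (0.111) or d (0.0775), and Rb1 not without floxed b (0.183) or control c (0.19). Cdk6, their kinase partner, was at 1791 and 1795, against 1803 and 1845 CPM and did not pass (-0.03 ± 0.09, adjusted p = 0.94). Of 21 genes of chromatin and DNA methylation, 2 rose and 2 fell (0 to 2 and 1 to 2 with 1 library left out). Those that fell encode DNA methyltransferases: Dnmt1 had 306 and 479 CPM in floxed cells, against 724 and 645 in controls (-0.80 ± 0.17, adjusted p = 0.00918), and Dnmt3b had 175 and 116 CPM in floxed cells, against 267 and 281 in controls (-0.91 ± 0.17, adjusted p = 0.00342). Dnmt1 did not pass without floxed a (0.118) or control c (0.107), and Dnmt3b not without floxed b (0.103). Those that rose were Aff3, of the AF4 family (146 and 165, against 83.1 and 88.2 CPM, 0.86 ± 0.17, adjusted p = 0.00546), and the histone deacetylase gene Hdac9 (11.9 and 15.2, against 3.99 and 3.14 CPM, 1.93 ± 0.41, adjusted p = 0.00823). Aff3 did not pass without floxed b (0.0831) or control c (0.0816) or d (0.0512), and Hdac9 not without floxed b (0.099) or control c (0.0646) or d (0.127). Of 19 ribosome biogenesis genes 2 fell (0 to 4 with 1 library left out), 18 had a log2 change below 0, and the median was -0.28. These were the nucleolar genes Npm1 (1955 and 1789, against 2408 and 2307 CPM, -0.33 ± 0.08, adjusted p = 0.0136) and Ncl (2398 and 2158, against 2899 and 2667 CPM, -0.29 ± 0.08, adjusted p = 0.0332). Npm1 did not pass without floxed b (0.208) or control c (0.133) or d (0.0607), and Ncl not without floxed b (0.362) or control c (0.305) or d (0.0679). Npm1 has pseudogenes that can share its reads. The share that fell was 15% of G1 regulators, 9.52% of chromatin genes and 10.5% of ribosome biogenesis genes, against 2.47% of all tested genes. The share that rose was 5% of G1 regulators and 9.52% of chromatin genes, against 2.54%.

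In DN3 cells of the same day most replication and mitosis genes fell. In all, 1420 of 14570 genes (9.75%) passed there, 659 higher and 761 lower in floxed cells. Of the 23 DNA replication genes, 21 fell in DN3 (median -0.64), as did 13 of 20 mitosis genes (median -0.40) and 11 of 19 ribosome biogenesis genes (median -0.39). The difference between the DN1 and DN3 changes itself passed for 5 of 23 replication genes, 2 of 20 mitosis genes and 6 of 20 G1 regulators, all toward higher in DN1. No ribosome biogenesis gene passed that test. Over all genes it passed for 201 of 14570 (1.38%). The replication genes were Cdc6, Mcm7, Mcm10, Rrm2 and Tyms, the mitosis genes Mki67 and Top2a, and the G1 genes Ccne1, Ccne2, E2f1, E2f2, Cdkn1a and Rb1. With 1 DN1 library left out, 3 to 5 replication genes, 1 to 2 mitosis genes and 2 to 6 G1 genes passed. Most of these did not pass in DN1 alone: Cdc6, which loads the replicative helicase, was at 120.0 and 118, against 115 and 112 CPM (log2 change 0.07 ± 0.10, adjusted p = 0.805), against -0.72 ± 0.10, adjusted p = 0.00013 in DN3. Cdkn1a fell in both, by 0.81 on the log2 scale in DN1 and by 2.24 in DN3, and these differed by 1.43 ± 0.21, adjusted p = 0.00164.

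**Figure D3:**
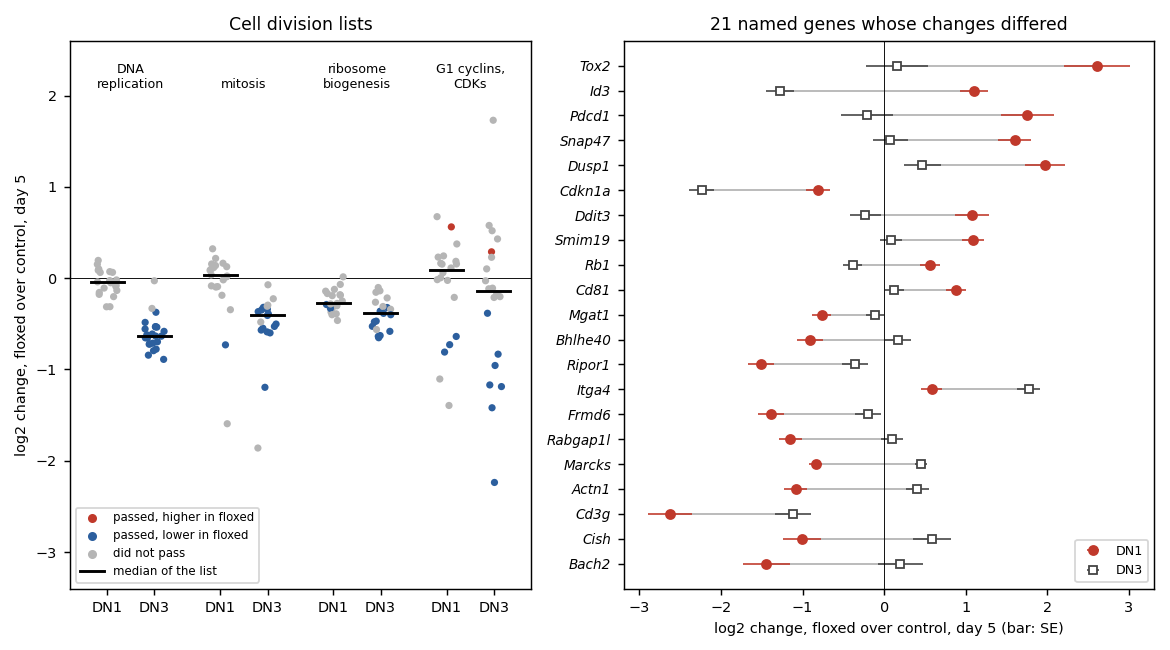
Left, log2 change (floxed over control, day 5) of each member of 4 cell division lists in DN1 and DN3 cells, with list medians as black lines and colours for direction and call. Right, log2 change with its standard error for the 21 named genes whose DN1 (red) and DN3 (open squares) changes differed by the test. Replication genes sit near 0 in DN1 (median -0.04) and below it in DN3 (median -0.64), and Id3 has opposite signs in the 2 kinds of culture.

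Some DN1 changes were opposite in DN3. Id3 rose in DN1 and fell in DN3 (-1.28 ± 0.17, adjusted p = 6.57e-05), and the difference was 2.39 ± 0.24, adjusted p = 3.36e-05. Marcks, an actin-binding substrate of protein kinase C, had 375 and 415 CPM in floxed cells, against 729 and 687 in controls in DN1 (-0.84 ± 0.08, adjusted p = 2.08e-06) and rose in DN3 (0.45 ± 0.08, adjusted p = 0.000854), a difference of -1.29 ± 0.11, adjusted p = 6.35e-06. Actn1, an actin crosslinker, had 146 and 126 CPM in floxed cells, against 281 and 295 in controls in DN1 (-1.08 ± 0.14, adjusted p = 7.96e-05), and in DN3 its change was 0.41 ± 0.14, adjusted p = 0.0683, a difference of -1.49 ± 0.20, adjusted p = 0.000565. Others changed the same way and differed in size. The fall of Cd3g was deeper in DN1 than in DN3 (-1.51 ± 0.35, adjusted p = 0.0365), and the rise of Itga4 was smaller (-1.19 ± 0.19, adjusted p = 0.00376). The difference in Cd3g did not pass when floxed a (0.105), control c (0.114) or control d (0.127) was left out, while those of Id3, Marcks, Actn1, Itga4 and Cdkn1a passed in all 4 fits without a DN1 library.

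Outside the lists, the genes with the smallest adjusted p after the 20 largest changes each way were set aside are given one by one, with no test that they share a function. Among those that rose, S100a4, a calcium-binding protein, had 512 and 755 CPM in floxed cells, against 179.8 and 213 in controls (1.69 ± 0.23, adjusted p = 0.000141), and Anxa2, an annexin, had 256 and 309.5 CPM in floxed cells, against 181 and 179 in controls (0.65 ± 0.09, adjusted p = 0.00019). Emp3, a membrane protein, had 112 and 142 CPM in floxed cells, against 49.9 and 51.1 in controls (1.33 ± 0.19, adjusted p = 0.000254). Genes of LIM-domain proteins were Limd2 (413 and 427, against 209.8 and 224 CPM, 0.95 ± 0.13, adjusted p = 0.000145), Fhl2 (25.6 and 41.6, against 8.45 and 8.9 CPM, 1.95 ± 0.24, adjusted p = 4.13e-05) and Lpxn, a paxillin relative (24.5 and 35.7, against 6.6 and 11.1 CPM, 1.75 ± 0.25, adjusted p = 0.000254). Plin3, a lipid droplet coat protein, had 28.3 and 62 CPM in floxed cells, against 10.4 and 12.8 in controls (1.95 ± 0.26, adjusted p = 9.69e-05), with floxed b well above floxed a. Chd3, a remodeller of the NuRD complex, had 225 and 255 CPM in floxed cells, against 124 and 114 in controls (1.01 ± 0.14, adjusted p = 0.000219), and Slc22a3, an organic cation transporter, had 188 and 224 CPM in floxed cells, against 80.5 and 94.8 in controls (1.23 ± 0.18, adjusted p = 0.000294). The rule that named these genes required no overlap between floxed and control libraries. Stromal markers, given above, also summed higher in the floxed libraries, and the part of stroma in these values was not tested.

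The genes named by the same rule that fell had no list or test behind them either. Ripor1, an inhibitor of a GTPase of the actin cytoskeleton, had 35.4 and 25.2 CPM in floxed cells, against 84.2 and 89 in controls (-1.51 ± 0.16, adjusted p = 8.87e-06). Arhgap9, a GTPase-activating protein, had 30.3 and 25.2 CPM in floxed cells, against 80.8 and 85 in controls (-1.58 ± 0.18, adjusted p = 2.5e-05). Rabgap1l, which acts on Rab GTPases, had 32.7 and 34.9 CPM in floxed cells, against 75.1 and 75.1 in controls (-1.15 ± 0.14, adjusted p = 3.9e-05). For Rabgap1l floxed a and b were near equal, as were the controls. Enah, which extends actin filaments, had 12.7 and 9.32 CPM in floxed cells, against 29.6 and 26.4 in controls (-1.35 ± 0.18, adjusted p = 0.000114), and Frmd6, a FERM-domain protein, had 27.3 and 23.2 CPM in floxed cells, against 69.1 and 63.4 in controls (-1.39 ± 0.16, adjusted p = 2.87e-05). The next 3 encode enzymes. Uck2, which salvages uridine and cytidine, had 324 and 261 CPM in floxed cells, against 617 and 596 in controls (-1.05 ± 0.12, adjusted p = 2.75e-05), Akr1c13, an aldo-keto reductase with close relatives, had 494 and 520.1 CPM in floxed cells, against 918 and 982 in controls (-0.91 ± 0.13, adjusted p = 0.000238), and Mgat1, which starts complex N-glycans, had 83 and 79.2 CPM in floxed cells, against 133 and 143 in controls (-0.77 ± 0.11, adjusted p = 0.000294). Hemgn, a nuclear protein of haematopoietic cells, had 19.6 and 10.6 CPM in floxed cells, against 46.5 and 45 in controls (-1.596 ± 0.22, adjusted p = 0.000165). Erythroid markers, given above, also summed lower in the floxed libraries, and the part of such cells in this fall was not tested.

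Measured as differences in mean CPM, abundant transcripts took part with small folds. The noncoding RNA Malat1 had 1201 and 1305 CPM in floxed cells, against 843 and 701 in controls (0.70 ± 0.14, adjusted p = 0.00669). Igfbp4 had 1380.0 and 1625 CPM in floxed cells, against 804 and 804 in controls (0.90 ± 0.22, adjusted p = 0.0181), Lgals1 (galectin-1) had 989.7 and 1055 CPM in floxed cells, against 678 and 716 in controls (0.55 ± 0.14, adjusted p = 0.0277), and the protease gene Cpa3 had 308 and 344 CPM in floxed cells, against 139.7 and 151 in controls (1.16 ± 0.21, adjusted p = 0.00206). Downward, the chaperone gene Hsp90ab1 had 6512 and 6292 CPM in floxed cells, against 7954 and 7719 in controls (-0.29 ± 0.07, adjusted p = 0.0275). Several of these rest on all 4 libraries. Malat1 did not pass without floxed b (0.0889) or control d (0.134), Igfbp4 not without floxed b (0.187) or control c (0.132) or d (0.136), Lgals1 not without floxed a or b or control c or d (0.057 to 0.207), and Hsp90ab1 not without floxed a or b or control c or d (0.0659 to 0.223). Igfbp4 and Lgals1 are also made by stromal cells, whose markers summed higher in floxed libraries, and their part in these values was not tested. Adgrg1, an adhesion G protein-coupled receptor, fell to 264 and 118 CPM in floxed cells, against 515 and 552 in controls (-1.48 ± 0.35, adjusted p = 0.015) and did not pass without floxed b (0.251) or control c (0.0751) or d (0.101).

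Other lists held few calls or none. A single call was 6.67% of p53 targets, 4.35% of RGS and G protein genes and 5.88% of cytotoxic and NK genes. These shares lie near the 5.01% of all tested genes that passed in either direction. None of 17 genes of the tricarboxylic acid cycle passed (median -0.06), and none of 15 genes of the BCL2 family did (median -0.09), which does not show that they were unchanged. Of 15 p53 targets only Cdkn1a passed, and Mdm2, another target, was at 139 and 128, against 138 and 134 CPM (-0.03 ± 0.12, adjusted p = 0.96). Of 23 RGS and G protein genes, Gng2 rose (35.4 and 32.6, against 16.1 and 20.6 CPM, 0.89 ± 0.23, adjusted p = 0.0324), but not without floxed a or b or control c or d (0.0897 to 0.293). Of 17 cytotoxic and NK genes, Il2rb alone passed. Gzma, abundant in all 4 libraries, was at 1115 and 1179, against 1427 and 1406 CPM and did not pass (-0.30 ± 0.17, adjusted p = 0.393). ILC2 cytokines were barely detected: Il13 had 0.285 and 1.004 CPM in floxed cells, against 0 and 0.131 in controls, and did not pass.

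On day 7 the same comparison in other libraries gave 3284 of 14570 genes (22.5%). Fitted on the 4 libraries of day 7 alone, the count was 770. The floxed pair of day 7 was the least alike of all groups, with a chi-square per degree of freedom of 32.5, against 9.13 on day 5. The spread was shared over all cultures in the reported fit. Of the 370 genes that rose on day 5, 264 also passed upward on day 7 (71.4% of the day 5 genes and 14.8% of the 1780 of day 7), and 5 passed downward. Of the 360 that fell, 242 passed downward again (67.2%, and 16.1% of 1504), and 5 passed upward. Most named genes kept their direction, and a few did not. Id3 fell on day 7 (-1.59 ± 0.17, adjusted p = 2.26e-06), the opposite of day 5. Cdkn1a (-0.17 ± 0.14, adjusted p = 0.411), Ccnd2 (0.00 ± 0.15, adjusted p = 1.0) and Ccnd3 (-0.23 ± 0.13, adjusted p = 0.19) no longer passed. Xbp1 stayed lower (-1.53 ± 0.20, adjusted p = 1.91e-05), and so did Marcks (-1.22 ± 0.08, adjusted p = 8.14e-09). Lmo4 (3.33 ± 0.24, adjusted p = 2.93e-08) and S100a4 (2.28 ± 0.23, adjusted p = 1.3e-06) stayed higher, and whether their changes differed between days 5 and 7 was not tested. In DN3 cells of day 5, 154 of the 370 genes that rose in DN1 also passed upward (41.6%, and 23.4% of 659) and 120 of the 360 that fell passed downward (33.3%, and 15.8% of 761).

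**Figure D4:**
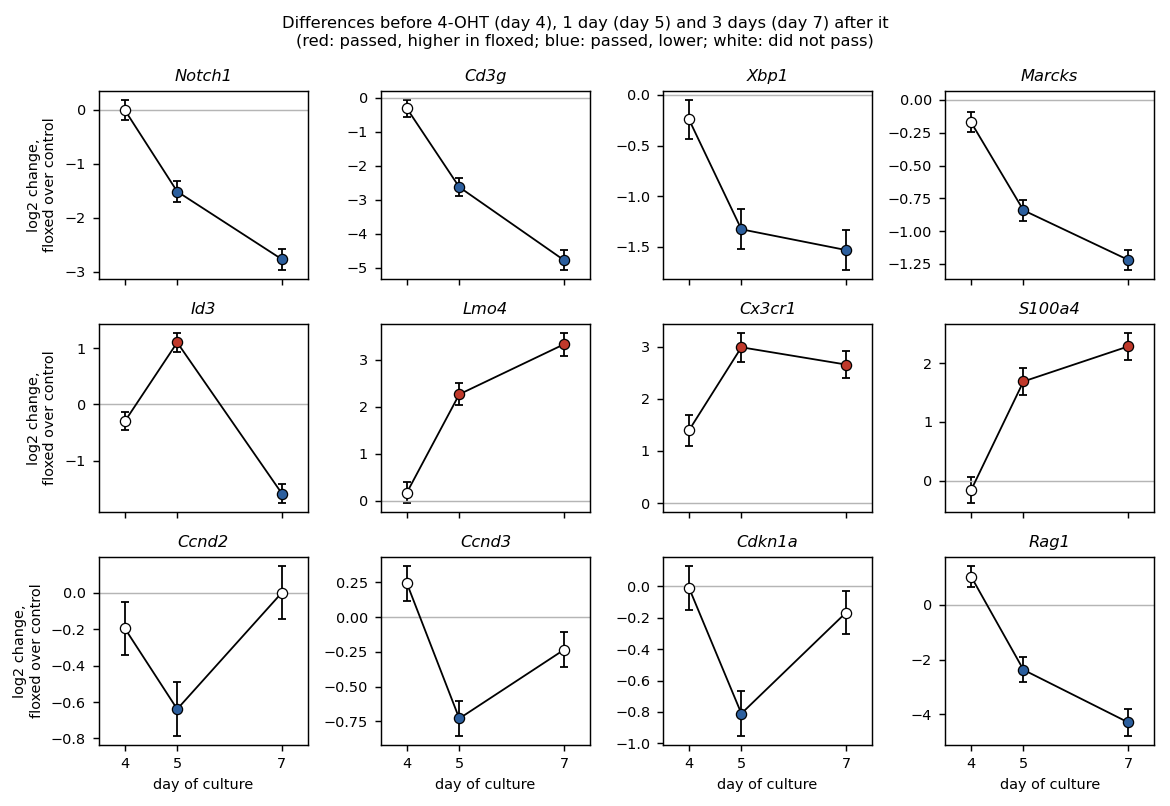
Log2 change (floxed over control) with its standard error of 12 genes in DN1 cultures on day 4, before 4-OHT, and on days 5 and 7. Filled points passed the test. Notch1, Cd3g, Xbp1 and Marcks are below 0 on days 5 and 7, Id3 passes in opposite directions on days 5 and 7, and Ccnd2, Ccnd3 and Cdkn1a pass on day 5 alone.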

How the data were processed

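RNA-seq libraries of DN1 and DN3 thymocyte cultures were compared by genotype and day, with groups taken from the titles. The authors deposited raw counts per Ensembl gene and library, whole numbers with no scaling. Per the submitters' processing notes the build was mm10 and DESeq2 was used, with no versions. Aligner and counter were not given in the sources used here, so reads of close paralogs, pseudogenes and overlapping genes may be split. Names and positions came from GENCODE M21, which held 48664 of 48881 gene IDs.

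One edgeR 4.0.16 model (R 4.3.3) covered the 24 libraries of the cultures, a mean for each of 12 groups, with TMM scaling, filterByExpr (minimum count 10) and quasi-likelihood tests on 12 residual degrees of freedom. P-values were adjusted by Benjamini-Hochberg over all 15172 tested genes. A gene passed at an adjusted p under 0.05. Values after ± are standard errors, the log2 change divided by the root of its F statistic, and CPM are TMM-scaled. The common biological coefficient of variation was 0.138. Replicate libraries differed by more than sampling noise (chi-square per degree of freedom 9.13 for floxed and 5.18 for control DN1 cells of day 5). The script was tested on simulated data.

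The members, the 45 gene lists and the tests were chosen with earlier results of these data known, so a list's direction is no independent evidence. Genes named were the marker and targeted genes, the passing members of each list with at least 10 CPM in the higher group (up to 4 each way) and its most abundant member that did not pass. To these were added, at 20 CPM or more, the 15 smallest adjusted p each way after setting aside the 20 largest changes, and the 10 largest CPM differences each way. Named outside this rule, after their values were seen, were genes under 10 CPM that complete a small count, marker genes and the genes of day 4. A few genes that the rule names are not reported here. Alternatives were DESeq2 1.42.0, RLE and upper quartile scaling, no filter or a stricter one (10 CPM in 2 libraries), fewer libraries in the fit, and leaving out each library. For 4-OHT in the day 7 DN1 cultures the labels name day 7 and the design text day 4, which was followed.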

Additional observations from a re-analysis of the deposited data

Results flagged for a closer look

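For 21 of the genes named by rule, the floxed to control change on day 5 differed between DN1 and DN3 cells by the interaction test of the edgeR fit. Values are the DN1 minus the DN3 log2 change with its standard error, n = 2 per group, and 201 of 14570 genes passed this test in all.

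Genes with opposite signs and a pass in both kinds of culture were Id3 by 2.386 ± 0.24 (1.11 in DN1 and -1.28 in DN3, adjusted p = 3.36e-05), Marcks by -1.292 ± 0.11 (-0.84 in DN1 and 0.45 in DN3, adjusted p = 6.35e-06) and Rb1 by 0.946 ± 0.17 (0.56 in DN1 and -0.39 in DN3, adjusted p = 0.00992).

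Genes that changed the same way in both were Cd3g by -1.507 ± 0.35 (-2.63 in DN1 and -1.12 in DN3, adjusted p = 0.0365), Cdkn1a by 1.428 ± 0.21 (-0.81 in DN1 and -2.24 in DN3, adjusted p = 0.00164) and Itga4 by -1.189 ± 0.19 (0.58 in DN1 and 1.77 in DN3, adjusted p = 0.00376).

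Genes higher in floxed DN1 that did not pass in DN3 were Tox2 by 2.451 ± 0.55 (2.61 in DN1 and 0.16 in DN3, adjusted p = 0.0305), Pdcd1 by 1.964 ± 0.45 (1.75 in DN1 and -0.21 in DN3, adjusted p = 0.0356) and Snap47 by 1.522 ± 0.30 (1.598 in DN1 and 0.08 in DN3, adjusted p = 0.0139). The same held for Dusp1 by 1.501 ± 0.34 (1.97 in DN1 and 0.47 in DN3, adjusted p = 0.0305), Ddit3 by 1.314 ± 0.28 (1.08 in DN1 and -0.23 in DN3, adjusted p = 0.0264) and Smim19 by 1.001 ± 0.19 (1.09 in DN1 and 0.09 in DN3, adjusted p = 0.0109), and for Cd81 by 0.757 ± 0.17 (0.88 in DN1 and 0.12 in DN3, adjusted p = 0.0305).

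Genes lower in floxed DN1 that did not pass in DN3 were Bach2 by -1.643 ± 0.40 (-1.45 in DN1 and 0.198 in DN3, adjusted p = 0.045), Cish by -1.599 ± 0.33 (-1.01 in DN1 and 0.59 in DN3, adjusted p = 0.0192) and Actn1 by -1.491 ± 0.20 (-1.08 in DN1 and 0.41 in DN3, adjusted p = 0.000565). Likewise lower were Rabgap1l by -1.244 ± 0.19 (-1.15 in DN1 and 0.09 in DN3, adjusted p = 0.00296), Frmd6 by -1.192 ± 0.23 (-1.39 in DN1 and -0.196 in DN3, adjusted p = 0.0115) and Ripor1 by -1.155 ± 0.23 (-1.51 in DN1 and -0.36 in DN3, adjusted p = 0.0155), and also Bhlhe40 by -1.073 ± 0.23 (-0.91 in DN1 and 0.17 in DN3, adjusted p = 0.0224) and Mgat1 by -0.653 ± 0.16 (-0.77 in DN1 and -0.12 in DN3, adjusted p = 0.0459).

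When each DN1 library was left out in turn, the difference passed in all 4 fits for Actn1, Cdkn1a, Id3, Itga4, Marcks and Rabgap1l. Without control c or d it did not pass for Smim19 (adjusted p 0.022 to 0.0679 over the 4 fits). Without floxed a or control c or d it did not pass for Bhlhe40 (adjusted p 0.0189 to 0.094 over the 4 fits), Cd3g (adjusted p 0.000708 to 0.127 over the 4 fits), Snap47 (adjusted p 0.0189 to 0.0896 over the 4 fits). Without floxed a or b or control c or d it did not pass for Bach2 (adjusted p 0.109 to 0.139 over the 4 fits), Cd81 (adjusted p 0.0594 to 0.136 over the 4 fits), Cish (adjusted p 0.0524 to 0.0915 over the 4 fits), Mgat1 (adjusted p 0.0863 to 0.194 over the 4 fits). Without floxed b or control c it did not pass for Ddit3 (adjusted p 0.0266 to 0.144 over the 4 fits), Frmd6 (adjusted p 0.0195 to 0.0732 over the 4 fits), Rb1 (adjusted p 0.00871 to 0.0773 over the 4 fits). Without floxed b or control c or d it did not pass for Dusp1 (adjusted p 0.0322 to 0.185 over the 4 fits), Pdcd1 (adjusted p 0.0243 to 0.153 over the 4 fits), Ripor1 (adjusted p 0.00569 to 0.0782 over the 4 fits), Tox2 (adjusted p 0.0223 to 0.154 over the 4 fits).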

How the results depend on the processing

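The 730 calls of day 5 kept their size within 1.5 times under both other scalings, both filters, both smaller sets of libraries and DESeq2, from 509 with the DN1 libraries only to 1069 with no filter. They fell most when libraries were left out, with counts from 214 (without floxed b) to 687 (without floxed a). Day 4 gave 13 genes, 210 with no filter, 5 with the DN1 libraries only, 35 with its 4 libraries alone and 41 with DESeq2. The change from day 4 to day 5 gave 95 genes, 445 with no filter, 56 with the DN1 libraries only, 186 with DESeq2, and 41 to 129 with 1 library left out. The DN1 minus DN3 difference gave 201 genes, 511 with no filter, 343 with DESeq2, and 57 to 142 with 1 library left out. Day 7 gave 3284 genes and 770 with its 4 libraries alone. Libraries of days 4 and 7 and of DN3 were not left out. The causes of these shifts were not tested, beyond more genes tested without a filter and fewer samples in the smaller fits. The share of calls higher in floxed cells on day 4 was 61.5%, against 88.1% with no filter, 80.0% with the DN1 libraries only, 71.4% with its 4 libraries alone and 73.2% with DESeq2.

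Of 172 named genes, 12 changed sign under 1 or more alternatives, all of them genes that did not pass in the reported fit or in that alternative, with log2 changes of at most 0.356 in size (Bcl11b, Cd247, Cd27, Cdk6, Gnai2, Hsp90aa1, Id2, Lig1, Mdm2, Nfkb1, Slc39a1 and Taldo1). The call was lost for 65 without floxed b, 56 without control c, 55 without control d, 21 without floxed a, 26 with the DN1 libraries only, 14 with upper quartile scaling, 13 with the 4 libraries alone, 3 with no filter, 2 with RLE scaling and 1 each with DESeq2 and the stricter filter. The 172 include genes that did not pass in the reported fit and so had no call to lose. A call was gained for 8 with no filter and 3 with the 4 libraries alone. It was gained for 2 each with DESeq2, upper quartile scaling and the stricter filter, and for 1 with the DN1 libraries only. No pairing by letter was stated in the labels, and with the letter as a block the change from day 4 to day 5 gave 128 genes. Same-letter deviations on different days correlated from -0.022 to 0.134. With 2 libraries a group, genes of few CPM and changes much under 2-fold were at the limit of detection.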
